A study of Anopheles gambiae with 5 samples.

Results

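Among 11868 annotated Anopheles gambiae genes, 238 (2.01%) carried both the acetyl mark H3K27ac and the trimethyl mark H3K27me3 in midgut chromatin, with no base under both marks. These genes were chosen by the measured peak positions. A gene, taken from its first to its last base with 200 bp added on each side, had to be touched by at least 1 peak of each list and to hold no base under both. A further 88 genes had both marks with shared bases, 3805 had H3K27ac alone, 3076 had H3K27me3 alone and 4661 had neither. Over all genes H3K27ac touched 34.8% and H3K27me3 touched 28.7%, and the count of members follows from the rule and is no finding by itself.

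The peaks came from 1 H3K27ac and 1 H3K27me3 ChIP-seq library of pooled midguts from adult females of the isogenic Kisumu strain aged 6 to 8 days, each called against 1 input library. The gene models came from RNA-seq of 1 midgut and 1 salivary gland library from females of the same strain and ages, joined in a single assembly without abundances. With 1 library for each mark there was no replicate, so no test between libraries was possible and every value below is a description. Intervals are 95% Wilson intervals for shares and order-statistic intervals for medians, and they cover counting error only.

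Both marks sit on the same residue of histone H3, so that a single histone tail cannot carry both. H3K27ac is known from active promoters and enhancers, where acetyltransferases place it. H3K27me3 is laid down by Polycomb complexes over silenced genes, often as broad domains. A midgut holds several cell types, and peaks from a pool do not show whether the marks of a gene lie in the same cells, which was not tested. The peaks were called by a different program for each mark (MACS for H3K27ac and SICER, built for broad regions, for H3K27me3), so differences of width or position between the marks cannot be told apart from differences between the programs.

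The members were long genes. Their median length was 22517 bp (19185 to 27170 bp, n = 238), against 4442 bp in genes with shared bases, 2652 bp in genes with H3K27ac alone and 2722.5 bp in genes with H3K27me3 alone. Members made up 27 of 8747 genes (0.309%) under 5000 bp, 26 of 1395 (1.86%) at 5000 to 10000 bp, 130 of 1511 (8.60%) at 10000 to 50000 bp and 55 of 215 (25.6%) of 50000 bp and over. A longer span meets more peaks of either list, so the members are set below beside genes with a single mark in the same length class. The median member had 6 exons (quartiles 4 and 10) and a longest intron of 12700.5 bp.

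The separation was on the gene body itself in most members. In 209 of 238 (87.8%) each mark covered bases between the gene's limits, while in 29 (12.2%, 8.62 to 17.0%) at least 1 mark lay only in the 200 bp flanks. H3K27ac covered a median of 11.8% of the body and H3K27me3 17.0%. In 96 members (40.3%) each mark was a single peak. Over the list, 387 H3K27ac peaks and 578 H3K27me3 peaks touched members. Their median lengths were 2244 bp for H3K27ac, against 2048 bp for the whole H3K27ac list, and 2599 bp for H3K27me3, against 2399 bp for the whole H3K27me3 list. Their median scores, which are comparable only within a list and which no source explains for H3K27me3, were 263.87 against 244.41 for H3K27ac and 241 against 248 for H3K27me3.

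Starts were more often under H3K27ac than under H3K27me3. A start counted as marked where a peak came within 200 bp of the first base of a transcript with the annotated intron chain (class "=" of the assembly). H3K27ac held a start in 121 members (50.8%, 44.5 to 57.1%) and H3K27me3 in 66 (27.7%, 22.4 to 33.7%). Sorted by their starts, 111 members had H3K27ac only, 56 had H3K27me3 only, 10 had each mark at a start, and 61 had neither. Both marks reached the window of the same start in 1 member alone, AGAP001620, where the peaks lay on either side of the start, 133 bp apart. The map of all members scaled to equal length shows these 4 classes.

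**Figure D1:**
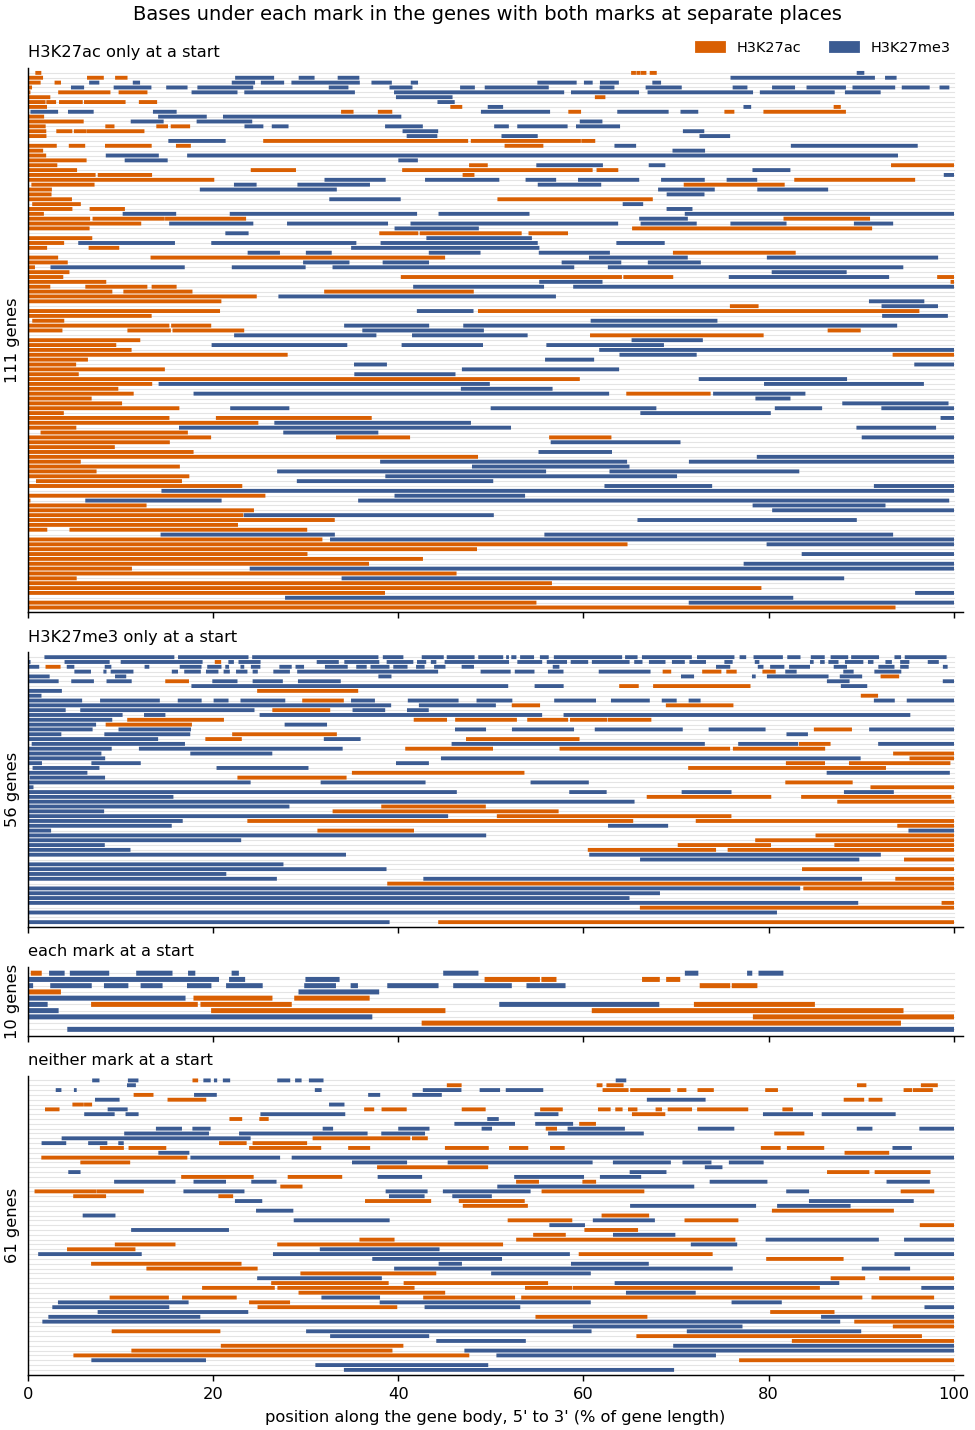
Bases under H3K27ac (orange) and H3K27me3 (blue) in each of the 238 members, drawn 5′ to 3′ as a percentage of gene length (x axis), 1 row per gene, with the longest gene on top of each of 4 classes by the mark at the starts. Most of the 111 genes with H3K27ac only at a start have orange at the left and blue further right, most of the 56 with H3K27me3 only at a start the reverse, and most of the 61 with neither hold both marks inside the body, with 2 that have H3K27ac in a flank only.

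These shares were lower than in genes with a single mark. H3K27ac was at a start in 88.3% of genes with H3K27ac alone, and H3K27me3 was at a start in 80.7% of genes with H3K27me3 alone. The gap was also present within a length class. Between 10000 and 50000 bp, H3K27ac held a start in 72 of 130 members (55.4%, 46.8 to 63.7%), against 443 of 541 genes with H3K27ac alone (81.9%, 78.4 to 84.9%). In the same class H3K27me3 held a start in 29 of 130 members (22.3%, 16.0 to 30.2%), against 359 of 591 genes with H3K27me3 alone (60.7%, 56.8 to 64.6%). Since a base under 1 mark cannot be under the other here, the rule itself lowers the share of starts that each mark can hold, and no test of the difference was made.

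**Figure D2:**
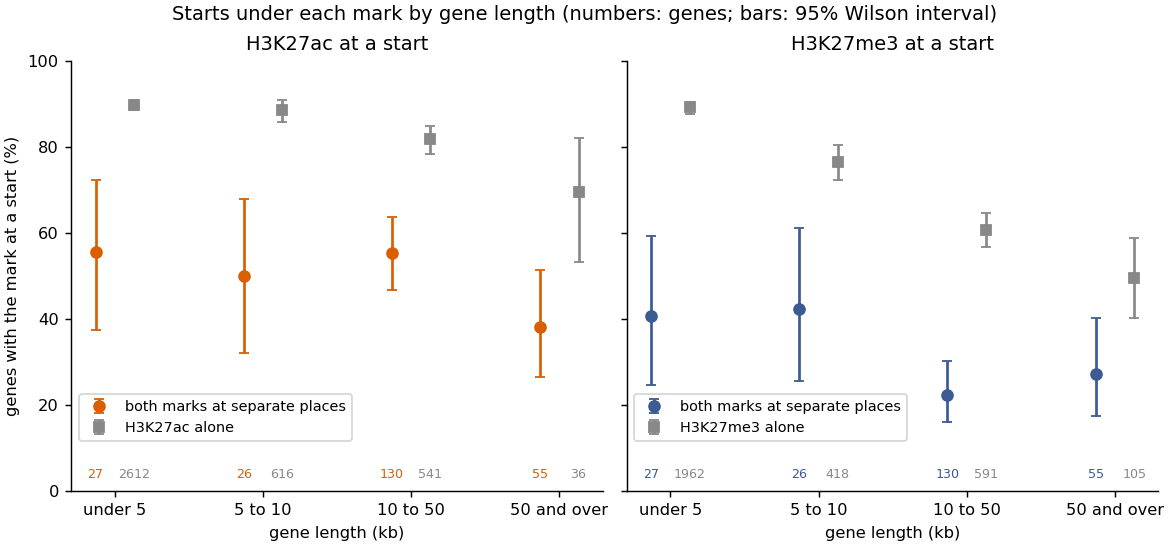
Share of genes with H3K27ac (left) or H3K27me3 (right) within 200 bp of a start (y axis, %) by gene length in kb (x axis), for members (coloured circles) beside genes with that mark alone (grey squares), with 95% Wilson intervals and the number of genes below each point. The members lie below the genes with 1 mark in each length class, with 55.4% against 81.9% for H3K27ac and 22.3% against 60.7% for H3K27me3 at 10 to 50 kb.

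Ends were marked less often than starts for H3K27ac. H3K27ac held an end in 50 members (21.0%, 16.3 to 26.6%) and H3K27me3 in 55 (23.1%, 18.2 to 28.9%), against 37.3% in genes with H3K27ac alone and 73.4% in genes with H3K27me3 alone, over all lengths. Within length classes the shares for H3K27ac were not lower in members, with 48.1% against 47.9% of genes with H3K27ac alone under 5000 bp, 42.3% against 14.8% at 5000 to 10000 bp, 16.9% against 14.2% at 10000 to 50000 bp and 7.27% against 2.78% at 50000 bp and over. For H3K27me3 they were lower in members in each class, with 51.9% against 84.5% of genes with H3K27me3 alone under 5000 bp, 34.6% against 61.7% at 5000 to 10000 bp, 26 of 130 against 49.4% at 10000 to 50000 bp and 10.9% against 47.6% at 50000 bp and over. In 138 members (58.0%) neither mark was at an end. Among the 111 members with H3K27ac only at a start, 33 had H3K27me3 only at an end, 5 had H3K27ac only, 1 had each mark and 72 had neither. Among the 56 members with H3K27me3 only at a start, 27 had H3K27ac only at an end, 7 had H3K27me3 only, 3 had each mark and 19 had neither. A start under 1 mark with the end under the other was thus found in 60 members of these 2 classes, and a start and end under the same mark alone in 12. Each mark was a single peak in 96 members (40.3%), and 0 members had a peak over the whole gene. The rule itself thus favours unlike marks at start and end, and no test of these counts was made. An end under a mark can be the start of the next gene, a point taken up below for marks away from starts.

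Along the transcribed strand, all H3K27ac bases lay 5′ of all H3K27me3 bases in 118 members (49.6%, 43.3 to 55.9%), and all H3K27me3 bases lay 5′ in 74 (31.1%, 25.6 to 37.2%). In the other 46 (19.3%) the marks alternated. The mark changed once along 192 members, with 39 changing 2 times, 5 changing 3 times, AGAP008197 changing 4 times and AGAP007163 changing 5 times. Position by position, H3K27ac covered the first base in 39.1% of members and its share was 10.9% at the middle of the body and 12.2% at the last base. H3K27me3 covered 21.4% at the first base, 29.4% at the middle and 14.7% at the last base. Among genes with 1 mark these were 80.6%, 47.5% and 27.5% for H3K27ac alone, and 73.6%, 75.7% and 60.7% for H3K27me3 alone. These profiles are not matched for length, and for H3K27ac at the last base the members' lower share is not seen at ends within length classes, as given above.

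**Figure D3:**
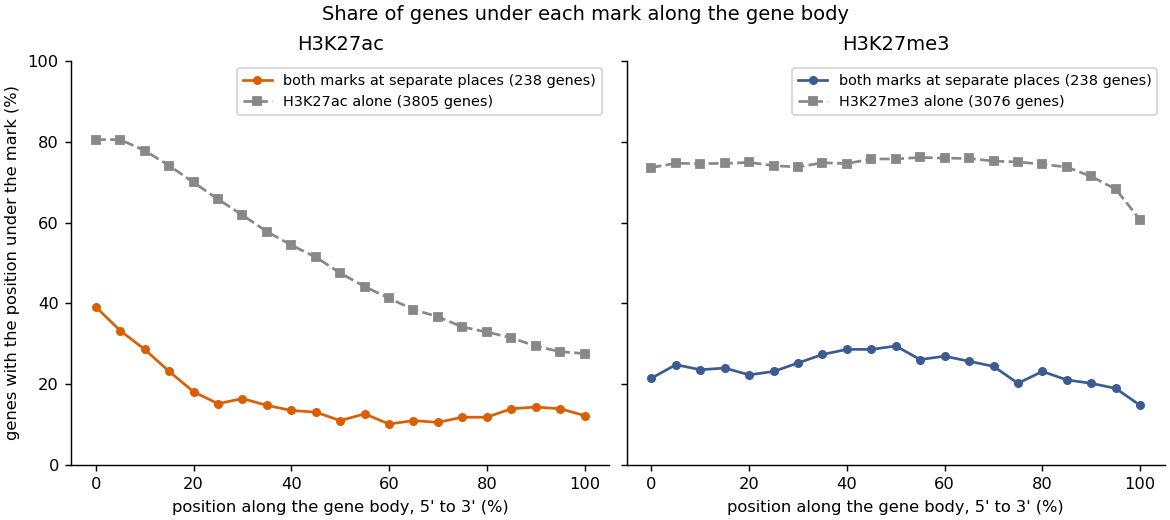
Share of genes (y axis, %) in which each position along the body, 5′ to 3′ (x axis, %), was under H3K27ac (left) or H3K27me3 (right), for the 238 members (coloured circles) and for genes with that mark alone (grey squares). In members H3K27ac was highest at the first base (39.1%), and H3K27me3 was highest at the middle (29.4%), and the groups are not matched for gene length.

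Introns held most of the marked bases, as they hold most of these genes. Exons of any class "=" transcript made up 12.2% of the members' body bases. First introns, here those of the longest class "=" transcript, made up 26.4%, and all other bases outside exons 61.4%. In genes with several starts these other bases can lie 5′ of that first intron, as in AGAP006186. Of the H3K27ac bases on bodies, 17.1% were exonic, 28.4% in these first introns and 54.4% elsewhere outside exons. For the H3K27me3 bases these were 11.1%, 27.7% and 61.2%. H3K27ac was confined to introns in 49 members (20.6%, 15.9 to 26.2%), against 1.31% of genes with H3K27ac alone. Confined means here no base on an exon or flank, and no peak within 200 bp of a start or end. H3K27me3 was confined to introns in 69 members (29.0%, 23.6 to 35.1%), against 2.08% of genes with H3K27me3 alone. Between 10000 and 50000 bp the values were 21.5% against 5.91% for H3K27ac, and 35.4% against 8.29% for H3K27me3. Since the rule lowers the share of starts that each mark can hold, it can itself raise these shares in members, and no test was made. In 123 members (51.7%, 45.4 to 58.0%) a single intron held bases of both marks, and in 18 members each mark lay in introns only.

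First introns differed with the start. Of the 111 members with H3K27ac only at a start, 91 had H3K27ac in the first intron and 38 had H3K27me3 there. Of the 56 with H3K27me3 only at a start, 50 had H3K27me3 in the first intron and 16 had H3K27ac there. Since a peak at a start runs on into the first intron, part of this follows from how the classes were made. A H3K27me3 peak lay wholly inside the body in 179 members and a H3K27ac peak in 134.

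The distance between the marks was mostly a few kb. The shortest stretch between a H3K27ac and a H3K27me3 base of a member had a median of 3047.5 bp (2282 to 3776 bp) and quartiles of 1193.25 and 6693.75 bp. It was under 200 bp in 13 members and 10000 bp or more in 43. The median was 3885.5 bp with H3K27ac 5′, 2838 bp with H3K27me3 5′ and 1771 bp in genes where the marks alternated. Median gene lengths in the same order were 21506.5, 15110 and 37807.5 bp, and the median gap was 21.1%, 22.1% and 4.88% of the gene. The shortest of several stretches is taken where a gene has more peaks, which itself lowers the value. H3K27me3 peaks were listed in steps of 200 bp, so gaps below that step are finer than the list resolves. The shortest gaps were 3 bp in AGAP000063, 11 bp in AGAP002399, 22 bp in AGAP002737 and 42 bp in AGAP000579. The genes just outside the rule were AGAP007666 with 4 shared bp, AGAP007384 with 54, AGAP003501 with 78 and AGAP008116 with 93. At the other extreme, AGAP005816 had 57147 bp between its marks, AGAP007327 had 56026 bp, AGAP006107 had 46455 bp and AGAP008859 had 42158 bp.

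The members with most of both marks in each start class show what these patterns look like on single genes. They were ranked by the smaller of their 2 marked lengths. Positions are in bp from the gene's 5′ limit along the transcribed strand, and gene coordinates are those of AgamP4. The files give no names or roles for these genes, so they are described by identifier and position.

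With H3K27ac at a start, AGAP005300 (2L, 13816597 to 13858982, minus strand) had H3K27ac from -361 to 8539 and again from 35077 to 40607, where its last start lies at 40002. The 6 H3K27me3 peaks filled the middle, from 13583 to 33381. The marks were thus nested, with H3K27ac at all 3 starts and H3K27me3 in introns between them for 13219 of its 13794 bp. AGAP001372 (2R, 3886379 to 3995267, minus strand) held 9531 bp of H3K27ac and 71452 bp of H3K27me3 in a single first intron of 99426 bp, with H3K27ac near the start and H3K27me3 from 19268 onwards. AGAP009210 (3R, 28747856 to 28807725, minus strand) had 5 H3K27ac peaks between -42 and 33330 and 2 H3K27me3 peaks from 37926 to 57524, the second of which reached the end of a transcript. AGAP007163 (2L, 43615314 to 43709083, minus strand) had 6 H3K27me3 peaks interleaved with 5 H3K27ac peaks. Its first start was unmarked, and its second, at 81746, lay in the H3K27ac peak from 74479 to 82828, which had a score of 3100.

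With H3K27me3 at a start, AGAP011722 (3L, 32342400 to 32369675, minus strand) had H3K27me3 from -7724 to 9274 in 2 peaks and H3K27ac from 11118 to 23481 in 3. The H3K27ac bases were intronic for 9889 of 10323 bp. AGAP007849 (3R, 2034049 to 2094208, minus strand) was under H3K27me3 from -17591 to 23607 and from 25409 to 30407. Its 6225 bp of H3K27ac lay in 1 intron of 35200 bp, which also held 12681 bp of H3K27me3. In AGAP008317 (3R, 8873794 to 8943972, plus strand) all 8858 bp of H3K27ac were in 1 intron of 48947 bp beside 25337 bp of H3K27me3. AGAP009424 (3R, 32823579 to 33002369, plus strand) had 18 H3K27me3 peaks over 45.7% of its body and 4 H3K27ac peaks, all in 1 intron, between 122559 and 144371, the first of them just past the window of its last start at 122307. In these 4 genes the H3K27ac peaks lay inside the body and at no class "=" start.

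With neither mark at a start, AGAP007985 (3R, 3690351 to 3754378, plus strand) had H3K27ac from 946 to 11038 and H3K27me3 from 11250 to beyond its end, which covered 15.8% and 81.2% of its body and left the first bases unmarked. AGAP008197 (3R, 6579633 to 6628196, plus strand) had its first H3K27ac peak at 362, just past the start window. AGAP009329 (3R, 31272657 to 31435685, plus strand) had 6 H3K27me3 peaks from 4944 to 90742, all in its first intron, followed by 7 H3K27ac peaks from 101184 to 159301. In AGAP009389 (3R, 31942431 to 32078060, minus strand) an intron of 120182 bp held all 12198 bp of H3K27me3 and 7371 bp of H3K27ac. Over the 61 members of this class, the nearest base under a mark of the gene lay a median of 3384 bp from a start (225 to 33786 bp), and within 1000 bp in 10. The nearer mark was H3K27ac in 28 and H3K27me3 in 33.

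Genes with several starts could carry a different mark at each. The members had 324 class "=" starts, of which 143 were under H3K27ac, 76 under H3K27me3, 1 under each and 104 under neither. In 44 members starts lay more than 1000 bp apart, and in 9 of these different marks held different starts. The first start was under H3K27me3 and the last under H3K27ac in 6 of the 9, and the reverse held in 1. AGAP000255 (X, 4818589 to 4894449, minus strand) had starts at 0, 22884 and 29872 under H3K27me3, in a run of 11 peaks from -11550 to 44048, and a last start at 55074 under H3K27ac (55037 to 57534, score 780.75). AGAP001751 (2R, 9305752 to 9397954, plus strand) had its first start under H3K27me3 (-551 to 19047, score 2145) and its second, at 47078, under H3K27ac (45481 to 50986, score 1209.66), while 3 starts further on were unmarked. AGAP006186 (2L, 27894349 to 27928675, plus strand) changed mark within 294 bp, with starts at 0 and 5011 under H3K27me3 (-948 to 5850) and the third, at 6615, under H3K27ac (6145 to 9071, score 2347.39). AGAP002711 (2R, 26014100 to 26046510, plus strand) had starts at 0, 417 and 20303 under H3K27me3 and its last, at 25509, under H3K27ac (23311 to 27543, score 1511.52), with 2 further H3K27ac peaks from 2220 to 9240 at no class "=" start.

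**Figure D4:**
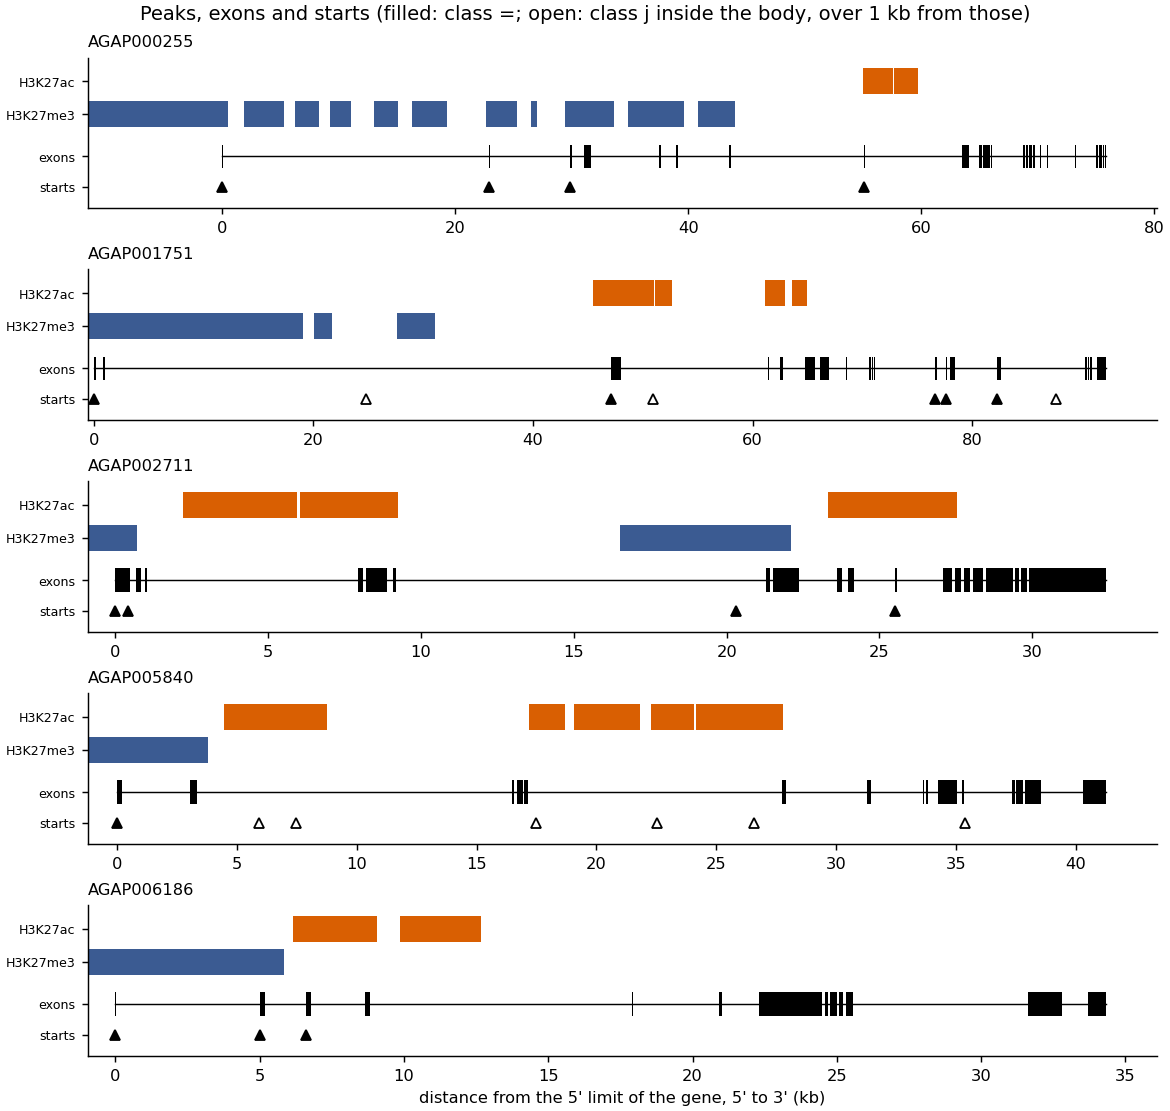
Peaks of H3K27ac (orange) and H3K27me3 (blue), exons (black) and starts (filled triangles for class "=", open for class "j") of 5 members by distance from the 5′ limit in kb (x axis). In AGAP000255, AGAP001751, AGAP002711 and AGAP006186 the first start is under H3K27me3 and a later one under H3K27ac, and in AGAP005840 5 of 6 open triangles lie under H3K27ac.

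Isoforms that the RNA assembly added to these genes began at H3K27ac in a larger share than the share of body bases at that mark. Class "j" transcripts share a splice junction with an annotated one but differ from it, and their starts played no part in choosing the genes. In 62 members such transcripts began at 101 distinct places inside the body, more than 1000 bp from every class "=" start. Of these, 51 (50.5%, 40.9 to 60.0%) lay within 200 bp of H3K27ac, while 10.1% of the body bases that could hold such a start did. Within 200 bp of H3K27me3 lay 9 of the 101 (8.91%, 4.76 to 16.1%), while 25.5% of those body bases did. Genes with H3K27ac alone had 168 of 265 such starts at H3K27ac (63.4%) with 27.8% of their body bases there, and genes with H3K27me3 alone had 81 of 151 at H3K27me3 (53.6%) with 52.3% of their body bases there. Starts in the same gene or peak are not independent, and no test was made. Counted by gene, 35 of the 62 had a class "j" start at H3K27ac, 8 had one at H3K27me3 and 1 had both. Assembled transcripts can be cut short at the 5′ end, and the starts of midgut and salivary gland were joined, so whether each start is used in the midgut was not tested.

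**Figure D5:**
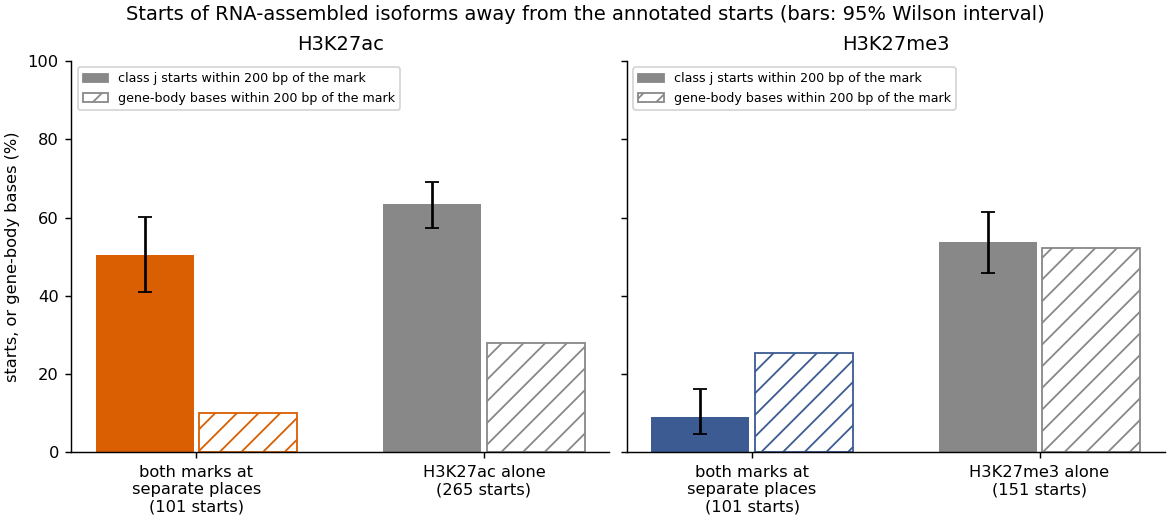
Share of class "j" starts inside the body (filled bars, with 95% Wilson intervals) and of the body bases that could hold one (hatched bars) within 200 bp of H3K27ac (left) or H3K27me3 (right), on a y axis in %, for members and for genes with that mark alone. In members 50.5% of starts against 10.1% of bases were at H3K27ac, and 8.91% of starts against 25.5% of bases were at H3K27me3.

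The same order of shares was seen where the class "=" start was under H3K27me3. In that class, 22 of 41 class "j" starts in the body were at H3K27ac and 4 were at H3K27me3, in 12 and 3 of the 21 genes with such a start. Of the 22, 5 were in AGAP005840, 4 in AGAP003735 and 3 in AGAP011722. Where neither mark was at a class "=" start, 19 of 38 were at H3K27ac and 2 at H3K27me3. The share of body bases near each mark was not measured by start class, so these counts have no such share beside them. The gene with most such starts at H3K27ac, named after its values were seen, was AGAP005840 (2L, 22376630 to 22417899, plus strand). Its class "=" start lay in a H3K27me3 peak from -1229 to 3769. Class "j" starts at 5907, 7439, 17465, 22507 and 26558 all lay in H3K27ac peaks between 4436 and 27786, and another at 35383 lay in neither mark. AGAP003735 (2R, 42726545 to 42761038, plus strand), named in the same way, had 4 class "j" starts in its single H3K27ac peak and H3K27me3 at its class "=" start.

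Some marks lay on the starts of other genes. H3K27ac did so in 36 members (15.1%), against 18.7% of genes with H3K27ac alone, and H3K27me3 in 28 (11.8%), against 5.62% of genes with H3K27me3 alone, with no matching for length. H3K27ac was at no class "=" start of the gene in 117 members. In 17 of them it lay on the start of another gene, in 26 on a class "j" start of the same gene, with 4 counted in each, and in 78 on neither. H3K27me3 was at no start in 172 members, on another gene's start in 24, on a class "j" start in 5 and on neither in 143. Where such a mark was at an end, it was on neither in 35 of 43 members for H3K27ac and 39 of 44 for H3K27me3. For starts of other genes, only marked bases in the member and its 200 bp flanks were counted. In 75 members (31.5%) another gene overlapped, and in 60 (25.2%) a gene lay nested inside, against 3.63% of genes with H3K27ac alone and 3.87% with H3K27me3 alone. Neither these shares nor those that follow are matched for length. The median length was 22517 bp in members, 2652 bp with H3K27ac alone and 2722.5 bp with H3K27me3 alone, and a longer span can hold more genes. H3K27ac lay wholly on other genes in 16 members (6.72%), against 5.83% of genes with H3K27ac alone, and H3K27me3 in 19 (7.98%), against 5.92% of genes with H3K27me3 alone.

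The longest and shortest members show where the rule is least telling. AGAP002315, the longest (2R, 19231025 to 19483421, plus strand), spanned 252397 bp, with H3K27me3 over 83.9% of its body, almost all in 1 intron of 249417 bp that holds nested genes. Its H3K27ac was 65 bp of a peak in the 3′ flank. AGAP006634 (2L, 34925049 to 35153301, minus strand) and AGAP006188 (2L, 27935499 to 28136823, minus strand) each had 1 intronic H3K27ac peak of low score, 91.18 and 100.47, among 9 and 29 H3K27me3 peaks. Among the shortest, AGAP013313 (819 bp), AGAP001620 (841 bp) and AGAP013114 (862 bp), the first had both marks on its body 43 bp apart, and the second had H3K27ac in the flank only. AGAP013114 had 1 mark in each flank, 1037 bp apart, and none on its body. All marked bases of AGAP013313 and AGAP013114 also lay on AGAP002898, another member, which overlaps both genes on the minus strand.

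Members lay on every chromosome arm. They were 73 of 2816 genes on 2L (2.59%, 2.07 to 3.25%), 70 of 3424 on 2R (2.04%, 1.62 to 2.57%) and 22 of 1784 on 3L (1.23%, 0.816 to 1.86%). On 3R they were 41 of 2338 (1.75%, 1.30 to 2.37%) and on X 32 of 970 (3.30%, 2.35 to 4.62%). Among genes of 10000 bp and over, members were 14.5% on 2L, 10.4% on 2R, 7.83% on 3L, 8.31% on 3R and 12.4% on X. Only 16 genes on the unplaced sequence UNKN were that long. The unplaced sequence UNKN had 0 of 536, which allows a share of up to 0.560% when 3 genes are taken as the most that a count of 0 allows, and up to 0.712% by the Wilson interval. Few members shared a peak: 6 of the 387 H3K27ac peaks and 5 of the 578 H3K27me3 peaks touched 2 or more members. The RNA assembly added class "j" isoforms to 143 members (60.1%). At 10000 to 50000 bp this was 66.9% of members, against 73.4% of genes with H3K27ac alone, 49.7% with H3K27me3 alone and 60.0% with neither mark. A list of 70 genes of immunity, insecticide resistance, control and homeotic function, taken from the study, held 65 with a class "=" model. Of these 0 were members, which allows a share of up to 4.62% by the same limit of 3. Shared bases were found in 1, H3K27ac alone in 19, H3K27me3 alone in 25 and neither mark in 20. Over all genes the shares in the same order were 2.01%, 0.741%, 32.1%, 25.9% and 39.3%, so 0 members sets the list apart in no way.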

How the data were processed

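ChIP reads of the H3K27ac, H3K27me3 and input libraries were mapped to AgamP4 with Bowtie 1.0.0 by the authors, who called H3K27ac peaks with MACS 1.4 and H3K27me3 regions with SICER (version not given in the sources used here) against the input. The deposited lists give positions in bp and other values, a score for each peak, comparable only within its list. Whether the whole-number H3K27me3 score is a read number is not given in the sources used here. RNA reads were mapped with TopHat2 2.0.10 and assembled with Cufflinks 2.1.1, and the deposited transcripts carry a class code against the annotation. Class "=" marks a matching intron chain, whose outer ends come from the assembly.

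From these files, gene spans, flanks, starts, ends and introns were intersected with the peaks in Python 3.11.15 (numpy 2.4.6, scipy 1.17.1, matplotlib 3.10.9). An overlap was at least 1 bp. Coordinates are 1-based. The interval code was tested on simulated data, 300 genes recounted base by base, of which 0 differed. The members and gene lists were chosen with earlier results of these data known. Genes named were the 4 members of each start class with the largest smaller marked length, the 4 shortest and longest gaps, 4 genes just outside the rule, the 3 longest and shortest members, and 4 with distant starts under different marks. Alternatives changed flanks, windows, peak thresholds, joining, gene models and the inclusion of UNKN. The reads were not used here, so depth was not measured. The input library, expression and genome sequence were not analysed here, and 0 members matched a gene name in the sources used.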

Additional observations from a re-analysis of the deposited data

How the results depend on the processing

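Of 99 alternative values, 90 stayed within the interval of the reported value, or within 1.5 times the count, and 9 moved. The setting without UNKN could change no value, since UNKN held 0 members, and its values count among the 90. Joining H3K27me3 peaks kept the same 238 members. With 1000 bp of flank, 551 genes met the rule, 234 of them among the 238, the median gap was 1742 bp and 62.4% had a mark only in the flanks. With H3K27me3 peaks at or above the median score, 141 genes met it, 136 of them shared, and H3K27ac held an end in 15.6%. With at least 200 bp under each mark, 0% had a mark only in the flanks, as the construction demands. An end window of 0 bp gave 13.0% for H3K27ac and 15.1% for H3K27me3, and one of 500 bp gave 29.0% for H3K27me3. Without flanks the flank share has no value. H3K27ac held starts more often than H3K27me3 under each alternative. The alternatives for class "j" starts were added after seeing the data, and gave 46.5 to 56.5% at H3K27ac and 6.93 to 12.9% at H3K27me3. The scores and the lack of replicates limit every position, and peaks below the callers' thresholds are not seen.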

Other observations

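Neighbouring genes were also looked up. Of the 238 members, 196 had a 5′ neighbour that shared no peak with them, and 35.7% of these neighbours had H3K27ac alone and 27.6% had H3K27me3 alone. Of the 3′ neighbours without a shared peak, 32.2% had H3K27ac alone and 28.1% had H3K27me3 alone. Over all genes the shares were 32.1% and 25.9%. By order of the marks, and again without shared peaks, members with H3K27ac 5′ had H3K27ac alone at 33 of 88 5′ neighbours (37.5%). Members with H3K27me3 5′ had it at 19 of 53 3′ neighbours (35.8%). With shared peaks kept, these were 62 of 118 (52.5%) and 34 of 74 (45.9%). Leaving out shared peaks removes only marked neighbours, and keeping them counts the member's own peak again. Neither way are the shares comparable with those over all genes, and no test was made.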
